A study of Homo sapiens with 4 samples.

Results

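The genes described here are 9 members of the MHC class I antigen presentation pathway, followed by chromatin accessibility in HepG2 cells. They were the heavy chain genes HLA-B, HLA-C and HLA-E, the light chain gene B2M, the peptide transporter genes TAP1 and TAP2, the immunoproteasome genes PSMB8 and PSMB9, and NLRC5. They were chosen by name, as 9 of the 20033 protein-coding genes that GENCODE places on the primary chromosomes. Every peak in the gene body or within 10 kb of it was taken for each gene. HepG2 is an established human liver cancer line, wild type here, and 50000 cells entered each assay of transposase-accessible chromatin (ATAC-seq). The 2 control libraries came from untreated cells and the 2 tazemetostat libraries from cells given 5 µM tazemetostat, an inhibitor of the histone methyltransferase EZH2, for 48 h. The treatment note names DMSO as the solvent of the drug, while the labels call the controls untreated. No label states that the libraries of a group came from separate cultures, so the p-values measure only the spread between these libraries, which may be technical.

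MHC class I molecules carry peptides made inside the cell to its surface, where CD8 T cells read them. Proteasomes cut proteins into peptides, the TAP transporter moves the peptides into the endoplasmic reticulum, and a heavy chain paired with beta-2-microglobulin binds them there. NLRC5 is a transactivator that acts at class I promoters through a shared set of elements, and interferon signalling raises the whole pathway through interferon-stimulated response elements. EZH2 deposits the repressive mark H3K27me3, and the comparison asks which chromatin was more or less accessible after its inhibition.

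The libraries held 17191428 to 26564400 mapped tags. Each control had fewer peaks (26133 and 34768) than each tazemetostat library (55313 and 54157), and its peaks held 4.32% and 5.69% of the tags against 11.5% and 9.81%. Peak values are normalised tag counts, that is, tags in the peak per 10000000 mapped tags of that library. A library was given a peak where a 300-bp stretch reached 14 or 16 tags, which equals normalised tag counts of 8.14 and 6.72 in the controls and 7.05 and 6.02 under tazemetostat, and where it stood at least 4-fold above the surrounding 10000 bp. The value deposited for a peak can lie somewhat under the limit (down to 4.89 in 1 library). Many values below lie near these limits, and a library without a peak may still hold tags there. Because the cells were measured in bulk, more open cells and more open chromatin per cell cannot be told apart. Among hepatocyte marker promoters, those of APOA1, APOA2 and HNF4A had a peak in every library, whereas those of ALB, TTR, FGB, AFP and SERPINA1 had none in any. LYZ was the only 1 of 8 blood markers with a peak, and of 3 fibroblast markers only COL1A2 had one, in a single tazemetostat library.

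Near-identical copies of member promoters occur elsewhere in the assembly, and their part in the chromosome 6 values below was not tested. The 250 bases before the transcription start are therefore shown for 6 members. In all but PSMB8 they carry elements that the pathway is known for. They are the RefSeq promoters of build GRCh38.p14, read 5′ to 3′ on the strand of the gene. Capitals mark matches on either strand to 5 patterns. They are the interferon-stimulated response element ISRE (GAAA repeated after 2 free bases), the NF-kB pattern (GGG followed, after 2 free bases, by TTCCC), GAS (TTCNNNGAA, where N is any base), CCAAT (bound by NF-Y) and TGACGC (a part of the X2 box). The windows are chr6:31357180-31357429 for HLA-B, chr6:31272093-31272342 for HLA-C, chr6:32853705-32853954 for TAP1, chr6:32838740-32838989 for TAP2 and chr6:32844680-32844929 for PSMB8, all on the minus strand, and chr15:44711267-44711516 for B2M on the plus strand.
HLA-B: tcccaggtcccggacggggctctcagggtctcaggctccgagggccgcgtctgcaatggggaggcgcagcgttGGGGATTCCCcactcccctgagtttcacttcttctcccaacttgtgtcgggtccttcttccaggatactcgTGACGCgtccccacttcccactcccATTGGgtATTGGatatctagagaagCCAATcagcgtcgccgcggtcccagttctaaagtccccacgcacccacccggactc
HLA-C: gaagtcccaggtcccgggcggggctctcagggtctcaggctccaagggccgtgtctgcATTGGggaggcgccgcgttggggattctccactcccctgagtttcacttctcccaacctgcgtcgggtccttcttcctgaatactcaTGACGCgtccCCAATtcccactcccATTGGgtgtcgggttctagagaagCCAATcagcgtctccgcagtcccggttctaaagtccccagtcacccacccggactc
B2M: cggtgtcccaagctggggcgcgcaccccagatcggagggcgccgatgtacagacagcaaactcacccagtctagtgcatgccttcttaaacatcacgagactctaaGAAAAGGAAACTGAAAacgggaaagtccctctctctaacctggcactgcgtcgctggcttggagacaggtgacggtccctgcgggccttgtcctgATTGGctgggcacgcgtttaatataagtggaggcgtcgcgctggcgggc
TAP1: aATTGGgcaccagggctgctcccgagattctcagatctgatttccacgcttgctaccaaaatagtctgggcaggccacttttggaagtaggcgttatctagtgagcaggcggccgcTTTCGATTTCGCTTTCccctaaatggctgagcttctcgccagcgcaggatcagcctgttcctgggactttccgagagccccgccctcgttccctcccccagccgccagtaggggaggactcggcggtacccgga
TAP2: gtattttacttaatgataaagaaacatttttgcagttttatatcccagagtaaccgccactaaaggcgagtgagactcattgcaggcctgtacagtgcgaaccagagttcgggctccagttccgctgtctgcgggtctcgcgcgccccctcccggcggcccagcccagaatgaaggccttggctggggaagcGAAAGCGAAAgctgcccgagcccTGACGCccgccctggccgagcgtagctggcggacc
PSMB8: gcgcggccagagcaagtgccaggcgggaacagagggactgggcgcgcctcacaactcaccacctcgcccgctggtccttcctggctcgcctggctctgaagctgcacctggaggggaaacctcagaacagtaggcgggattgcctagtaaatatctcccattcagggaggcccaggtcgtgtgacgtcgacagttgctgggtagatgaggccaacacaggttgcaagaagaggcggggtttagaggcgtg

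The table of promoters held 7 of the 9 members; HLA-E and NLRC5 are named only. ISRE matches occurred in B2M (2, overlapping), TAP1 (2, overlapping) and TAP2 (1), against 3.02% of the 34943 promoters of the same length. The NF-kB pattern occurred in HLA-B alone of the 7, against 1.96% of all promoters. CCAAT occurred in HLA-B (3), HLA-C (4), B2M, TAP1 and PSMB9, the last 2 at the same place between the genes, against 32.0%, and the X2 pattern in HLA-B, HLA-C and TAP2, against 7.64%. The GAS pattern was found in none of the 7, against 6.56% of all promoters, and PSMB8 held none of the patterns. HLA-B and HLA-C shared 226 of 254 aligned positions (89.0%). Matches are letters in a window and do not show that a factor was bound.

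On the primary chromosomes the 9 windows held 11 merged regions, where peaks that overlapped by at least 1 bp were joined across libraries, out of 78220 such regions in the genome. Control replicates 1 and 2 had 1 and 3 peaks in the windows, and tazemetostat replicates 1 and 2 had 8 and 7. One region was shared by all 4 libraries, 1 was called in both tazemetostat libraries and no control, 2 in both tazemetostat libraries and 1 control, and 7 in a single library. Of all regions, 13.7% were called in both tazemetostat libraries and no control, and of the 11 members' regions 1 was. No member region was called in both controls and no tazemetostat library, against 0.440% of all regions. All 7 single-library regions were tazemetostat peaks. The tazemetostat libraries also held more peaks genome-wide (55313 and 54157 against 26133 and 34768). The share of tazemetostat peaks among all 36050 single-library regions was not counted.

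**Figure D1:**
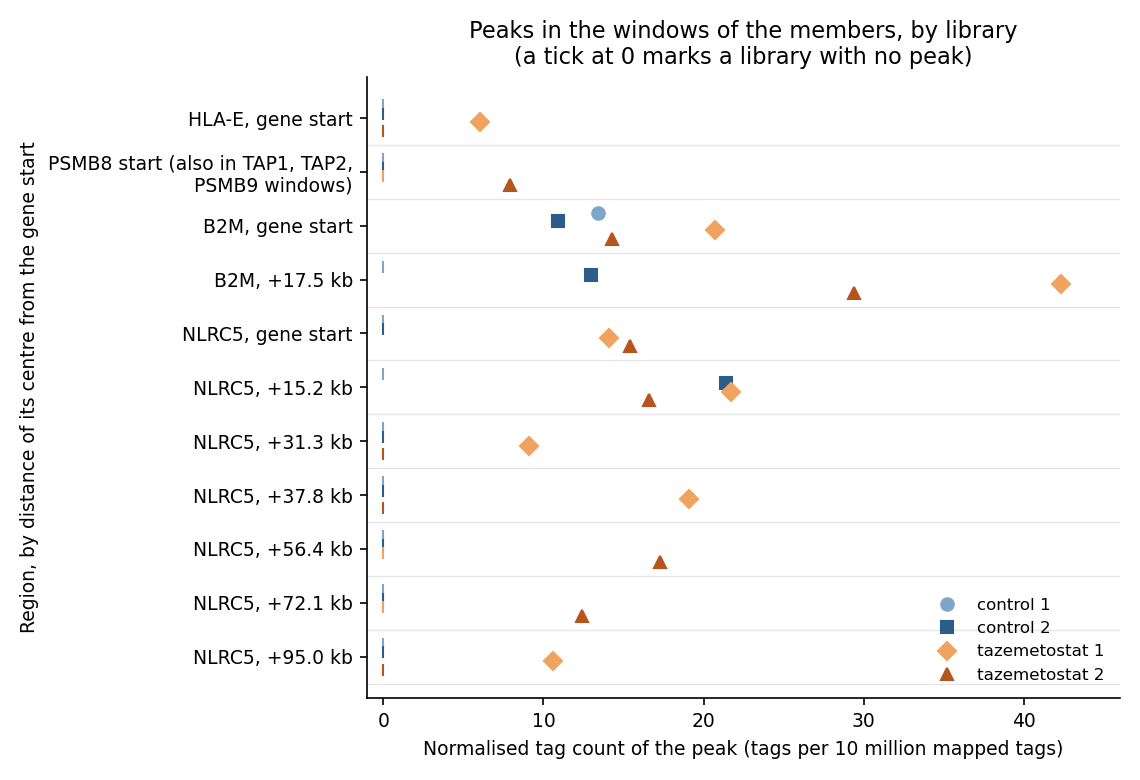
Normalised tag count (x axis, tags per 10000000 mapped tags) of every peak in the windows of the members on primary chromosomes, 1 row per merged region and 1 marker per library. Blue markers are the 2 controls and orange markers the 2 tazemetostat libraries, and a tick at 0 stands for a library with no peak. Only the B2M promoter has all 4 markers, and the NLRC5 promoter has both tazemetostat markers (14.1 and 15.4) and no control marker.

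NLRC5, whose window is the longest (114047 bp against 23382 to 36907 bp), held 7 of the 11 regions, and the only one called in both tazemetostat libraries and no control. Its promoter region, chr16:56989321-56989779, spans the gene start and a 5′ UTR exon. No control library had a peak there, and tazemetostat replicates 1 and 2 held 14.1 and 15.4, in peaks of 300 and 404 bp. These values lay above the calling limits of the controls (8.14 and 6.72), while their fold over the local background was 4.67 and 4.39, just past the required 4. At the promoter the tazemetostat replicates were close to each other. A library with no peak has no value, so the difference was not tested.

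A second NLRC5 region, chr16:57004250-57005031, covers the start of other transcripts and UTR exons 15155 bp into the gene. Its values were 21.4 in control replicate 2, 21.7 and 16.6 in tazemetostat replicates 1 and 2, and no peak in control replicate 1. It had the highest mean of the gene's regions, and control replicate 2 lay between the 2 tazemetostat libraries. The other 5 regions each came from 1 tazemetostat library. Replicate 1 supplied those with 9.07, 19.1 and 10.6, and replicate 2 those with 17.3 and 12.4. Of these 5, 2 touched coding exons, 2 were intronic and 1 lay past the 3′ end of the gene, and their folds over local background ranged from 4.07 to 4.64. Summed over the NLRC5 window, the normalised tag count was 0 and 21.4 in the controls and 74.6 and 61.7 under tazemetostat, over 0, 645, 2025 and 1854 bp of peak. Per kb of peak the called libraries were alike, at 33.2 in control replicate 2 and 36.8 and 33.3 under tazemetostat, and the larger sums went with the larger covered length. No 100-base stretch of the NLRC5 window recurred on the 6 alternate contigs of chromosome 16.

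B2M, which encodes the invariant light chain of all class I molecules, was the only member whose promoter had a peak in every library. The region, chr15:44711179-44711795, spans the gene start, coding and UTR exons of B2M and the divergent start of PATL2, and contains both ISRE matches and the CCAAT match shown above (144, 138 and 49 bp before the start). Its normalised tag count was 13.4 and 10.9 in the controls and 20.7 and 14.3 under tazemetostat, in peaks of 482, 375, 492 and 570 bp. Both tazemetostat values lay above both controls, but tazemetostat replicate 2 exceeded control replicate 1 by less than the distance between the tazemetostat libraries. The means were 12.2 ± 1.77 and 17.5 ± 4.53 (SD, n = 2). In limma the difference was 0.48 on the log2(value + 1) scale, with an SE of 0.306 and a 95% interval from -0.16 to 1.11, and it did not pass the test (limma, adjusted p = 0.175). The median of all 15383 regions tested was 0.70 on the same scale, and 74.8% of them had a larger difference than B2M, while the interval includes that median. When each library was centred on its median, B2M differed by -0.28.

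This was the only member region with exactly 1 peak in every library, and so the only one the fit could test. The fit called 42.7% of all regions higher and 0.247% lower under tazemetostat at an adjusted p under 0.05 (6569 and 38 regions). These counts depended on the scaling of the libraries, being 0 and 0 with median-centred libraries in limma, 23 and 174 in edgeR with TMM factors, and 3 and 103 in DESeq2. Of the members' regions it called 0 of 1 in either direction. The count was 0 also at an unadjusted p under 0.05, and edgeR and DESeq2 called 0 as well.

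**Figure D2:**
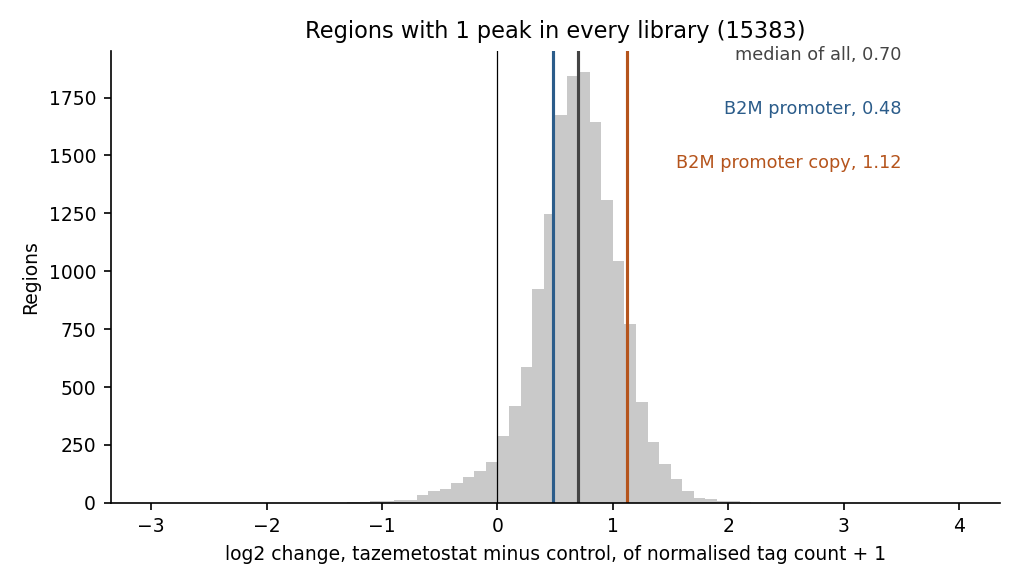
Number of regions (y axis) by log2 change of the normalised tag count + 1, tazemetostat minus control (x axis), for the 15383 regions with exactly 1 peak in each of the 4 libraries. Vertical lines mark 0, the median of all regions (0.70), the B2M promoter on chromosome 15 (0.48) and the copy of that promoter on an alternate contig (1.12).

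The B2M promoter also occurs on 1 alternate contig of chromosome 15, a second version of the same locus in the assembly, where 1101 bases around the start match at 99.9%. That copy had a peak in every library as well, with 8.73 and 9.24 in the controls and 18.6 and 23.0 under tazemetostat. Here the groups did not overlap and the replicates lay close together relative to the gap. How many of the 15383 tested regions also had groups that did not overlap was not counted. The copy was tested in the same fit and differed by 1.12 with an SE of 0.296 (limma, adjusted p = 0.0129). The median over all tested regions was 0.70, and 42.7% of them were called higher. With the library sizes of the file headers, edgeR called it as well, at 1.21 (edgeR, adjusted p = 0.00681). That fit called 7455 of all 15383 regions higher. With median-centred libraries the difference of the copy was 0.36 and was not called (limma, adjusted p = 0.66). It was not called by edgeR with TMM factors (0.52) or DESeq2 (0.51). Leaving out 1 library, which leaves a group of 1, gave differences of 0.97 to 1.27 in limma. No call was read from those fits. Added together, the 2 copies held 22.1 and 20.1 in the controls and 39.3 and 37.3 under tazemetostat, or 21.1 ± 1.41 and 38.3 ± 1.41 (SD, n = 2), a 1.81-fold ratio of means. With the sum in place of the primary value, an alternative chosen after seeing the data, the difference was 0.83 (limma, adjusted p = 0.0327), beside the median of 0.70. With the library sizes of the file headers, edgeR called the summed value too, at 0.86 (edgeR, adjusted p = 0.0281). The summed value differed by 0.07 with median-centred libraries (limma, adjusted p = 0.946). It differed by 0.15 in edgeR with TMM factors and by 0.14 in DESeq2, and neither called it. Leaving out any 1 library gave it differences of 0.76 to 0.89 in limma, again with no call read. The B2M call thus depended on whether the second copy was counted and on the scaling. How tags that fit both copies were placed is not given in the sources used here, and its part in these values was not tested.

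**Figure D3:**
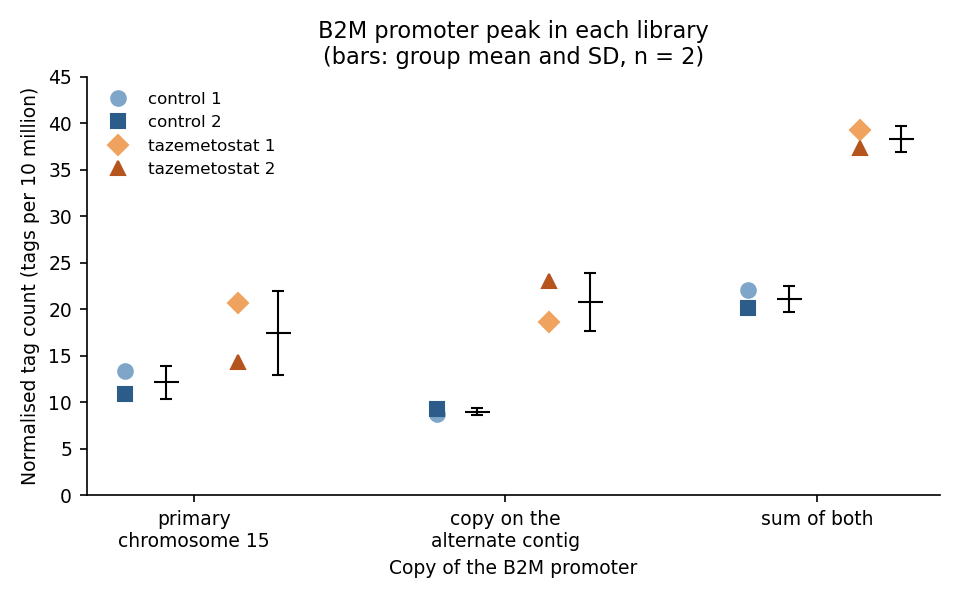
Normalised tag count (y axis, tags per 10000000 mapped tags) of the B2M promoter peak on primary chromosome 15, at its copy on the alternate contig, and as the sum of both. Each marker is a library, and the bars are the group mean and SD of 2 libraries. The tazemetostat sums (39.3 and 37.3) stand apart from the control sums (22.1 and 20.1), whereas the primary values lie closer together.

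The other region in the B2M window, chr15:44728481-44729294, lies 17529 bp downstream of the B2M start, at the promoter and 5′ UTR of TRIM69, a ubiquitin ligase gene. It had no peak in control replicate 1 and held 13.0 in control replicate 2 and 42.3 and 29.4 in the tazemetostat libraries. Together with the promoter it gave window sums for B2M of 13.4 and 23.9 in the controls and 63.0 and 43.7 under tazemetostat, the first of them from the promoter alone, over 482, 865, 1292 and 1337 bp of peak. B2M and NLRC5 were the 2 of 9 members whose window sums were higher in both tazemetostat libraries than in both controls. The same held for 67.7% of all coding genes. With 2 against 2 libraries, a two-sided exact permutation test of a single gene cannot go below p = 0.33, the value it gave for both.

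B2M was the only member with promoter values in all libraries, so likeness was measured to it. The genes whose promoter values were nearest to it over the 4 libraries, by Euclidean distance on log2(value + 1) among 4735 coding genes with 1 such region, were PATL2, FBXO6 and MIGA1. PATL2 has distance 0 because it shares the B2M region. FBXO6, an F-box gene on chromosome 1, held 11.6, 10.5, 22.2 and 14.7 (distance 0.224) in the order control replicates 1 and 2, tazemetostat replicates 1 and 2. MIGA1, also on chromosome 1, held 15.7, 10.1, 20.7 and 13.6 (distance 0.246).

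The 7 members on chromosome 6 lie within the MHC, and on the primary chromosome they showed almost no peaks. No peak fell in the window of HLA-B (chr6:31343872-31377067) or HLA-C (chr6:31258749-31282130) in any library. HLA-E, a non-classical heavy chain gene, had a single peak at its start, chr6:30489269-30489569, with 6.05 in tazemetostat replicate 1 only, from 12 tags. TAP1, TAP2, PSMB8 and PSMB9 are neighbours whose windows overlap, and all 4 windows held the same region, chr6:32844569-32844869. It covers the start and 5′ UTR of PSMB8 and an exon of the antisense gene PSMB8-AS1, and was called in tazemetostat replicate 2 only, with 7.91 from 21 tags at 27.2-fold over the local background. It also lies within 1 kb after the outermost start that GENCODE gives for PSMB9, whose RefSeq start is 10056 bp farther on. At the starts used for TAP1, TAP2 and PSMB9 themselves there was no peak in any library. Of the 7 promoters, 0 had a peak in either control and 1 in each tazemetostat library, whereas among all coding genes 31.8% and 37.4% of promoters had a peak in the controls and 46.8% and 44.3% under tazemetostat.

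The low number of peaks was shared by the neighbourhood. Between the HLA-E and PSMB9 windows, the primary chromosome held 5.02 and 7.95 peaks per Mb in the controls and 15.9 and 17.2 under tazemetostat. The rest of chromosome 6 held 9.45 and 13.2 per Mb in the controls and 19.9 and 20.2 under tazemetostat. The MHC span thus stood at 0.531 and 0.603 of the rest of the chromosome in the controls and 0.799 and 0.848 under tazemetostat. On the 7 alternate contigs that hold further versions of the MHC control replicates 1 and 2 had 66 and 134 peaks, and tazemetostat replicates 1 and 2 had 340 and 315.

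**Figure D4:**
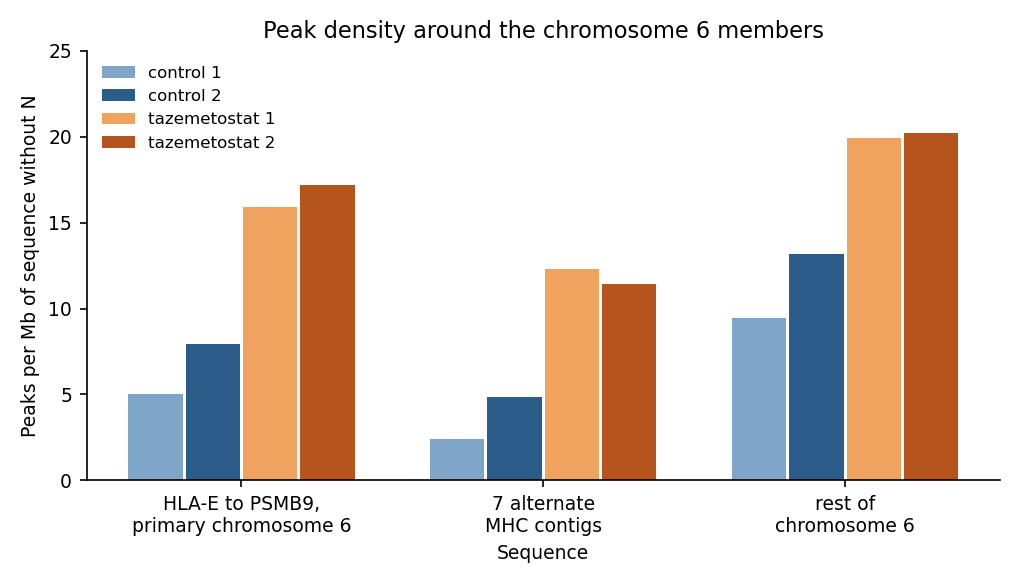
Peaks per Mb of sequence without N (y axis) in each library, for the primary chromosome 6 from the HLA-E window to the PSMB9 window, for the 7 alternate MHC contigs, and for the rest of chromosome 6. Bars are single libraries. In every library the MHC span lies below the rest of the chromosome, and the contigs lie below both.

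The promoters of these members occur almost unchanged on the contigs. All 100-base stretches of the 1101 bases around the starts of HLA-E, TAP1, TAP2, PSMB8 and PSMB9 were found again, letter for letter, on at least 1 alternate contig of chromosome 6, and 84.0% and 80.0% of those of HLA-B and HLA-C. Counting TAP1 and PSMB9, which start head to head, as 1 promoter, the 6 promoters were matched in 44 places: 6 on the primary chromosome and 38 on the contigs, at 94.4% identity or more, with 18 of the 44, the 6 primary ones included, identical to the primary sequence over the full length. A tag from such a promoter can have several places of equal fit. The submitters' notes used here do not state how it was placed, and the part of this in the values was not tested.

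Read over all copies, each of the 6 promoters had a peak under tazemetostat. Peaks lay at 2 and 6 of the 44 copies in the controls and at 18 and 11 under tazemetostat, with values from 5.65 to 18.1. All 6 promoters had a peak at 1 copy or more in each tazemetostat library, and 2 and 4 of them in the controls. Of the 23 copies with any peak, 16 had it under tazemetostat only, 5 in both groups and 2 in a control only. Called in both tazemetostat libraries and in no control were 7 copies, and in both controls and no tazemetostat library 0. Of the 24 merged regions in the matched windows on the contigs, 8 were called in both tazemetostat libraries and no control, beside 23.2% of all regions on these contigs. The contig regions are near-identical in sequence, so the copies are not replicates of each other.

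**Figure D5:**
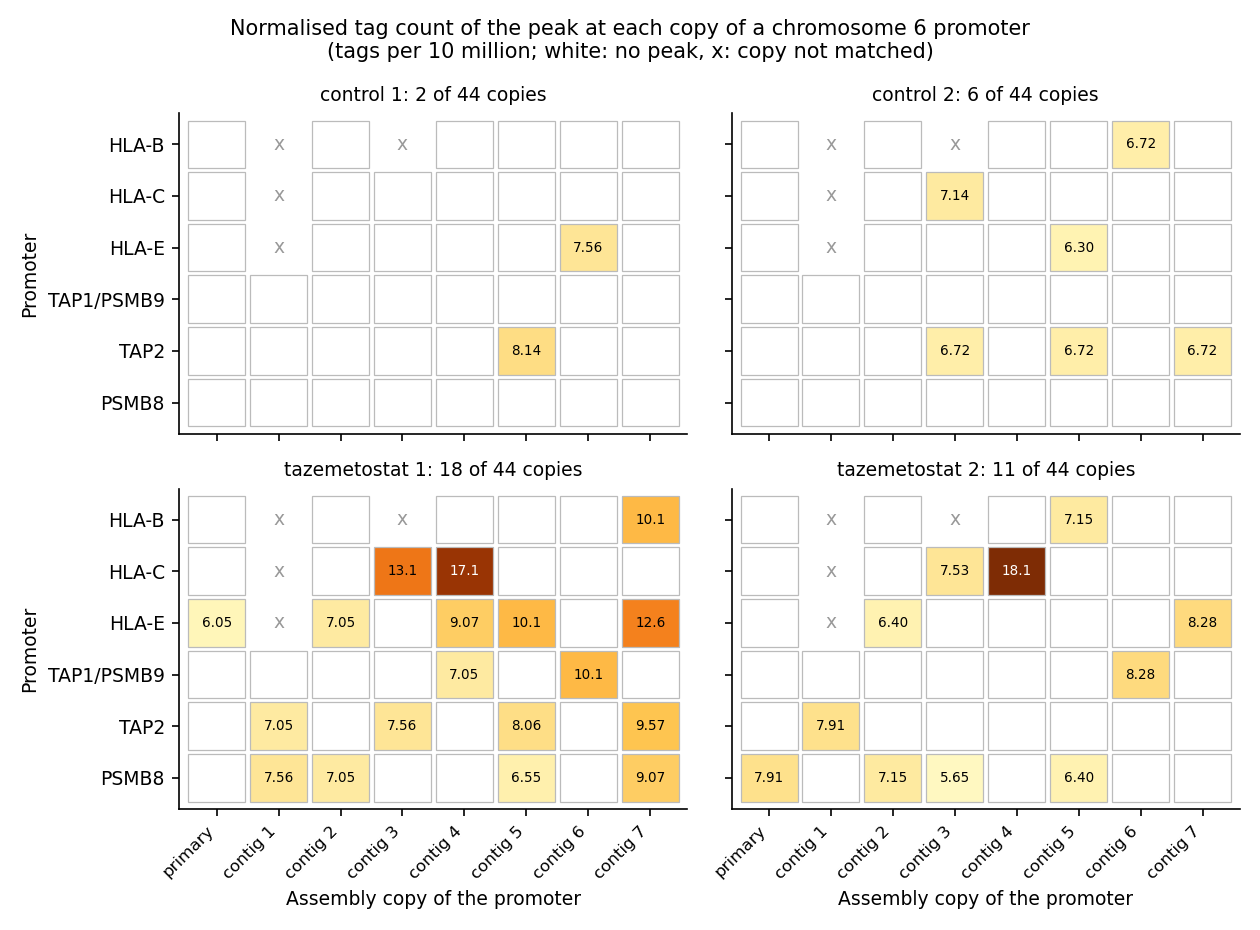
Peaks at the copies of the 6 chromosome 6 promoters, 1 panel per library, with promoters in rows and the primary chromosome and the 7 alternate contigs in columns. Coloured cells give the normalised tag count (tags per 10000000 mapped tags), white cells had no peak, and x marks a promoter without a match on that contig. The panels show 2, 6, 18 and 11 coloured cells.

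PSMB8 and the shared TAP1 and PSMB9 promoter had peaks only in tazemetostat libraries. PSMB8 encodes an immunoproteasome subunit, and its 8 copies held peaks at 4 places in each tazemetostat library and at none in the controls. Summed over the copies, PSMB8 was at 30.2 and 27.1 under tazemetostat. Its single peaks held 5.65 to 9.07, near the calling limits of the controls (8.14 and 6.72). A control could therefore hold a like signal without a peak. The promoter between TAP1 and PSMB9 had peaks at 2 copies in tazemetostat replicate 1 and at 1 in replicate 2, with sums of 17.1 and 8.28, and at none in the controls. Its single peaks held 7.05 to 10.1, beside the same limits.

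The heavy chain genes had peaks in both groups. HLA-C summed to 0 and 7.14 in the controls and 30.2 and 25.6 under tazemetostat, and contig 4 (in the order of the contig names) alone held 17.1 and 18.1 there, the highest values at any copy. HLA-E summed to 7.56 and 6.30 in the controls and 44.9 and 14.7 under tazemetostat, with a wide gap between the tazemetostat replicates. HLA-B summed to 0 and 6.72 in the controls and 10.1 and 7.15 under tazemetostat, with the replicates numbered 2 nearly level. TAP2, the partner of TAP1 in the peptide transporter, was the only promoter whose groups overlapped, with 8.14 and 20.2 in the controls and 32.2 and 7.91 under tazemetostat. Sums over copies were not taken for other promoters, so no general share stands beside this. For window sums on the primary chromosomes, 67.7% of all coding genes were higher in both tazemetostat libraries than in both controls. Over the 6 promoters the sums were 15.7 and 40.3 against 165 and 90.8. None of these sums was tested beyond the exact permutation test, two-sided, whose smallest p of 0.33 was reached by all but TAP2 (exact p = 1.0000).

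The rest of the pathway was read from lists of genes for peptide trimming and loading, the proteasome, and class I transcription factors. Of 22 such genes, 12 and 14 had a promoter peak in the controls and 14 and 15 under tazemetostat, 10 of them in every library. The 3 that lie in or beside the MHC, among them the peptide-loading gene TAPBP, had none in any library, like 7 MHC class II genes listed for comparison. Of the 22, 7 promoters could be tested, and limma called 0 higher and 0 lower, with differences from 0.42 to 0.69 and a median of 0.47 beside 0.70 over all regions. At an unadjusted p under 0.05 limma gave 2 of these 7. How many of all regions passed that unadjusted limit was not counted. The edgeR test with the library sizes of the file headers called 1 of the 7. Of all 15383 regions it called 7455 higher and 52 lower. For the 7 promoters, edgeR with TMM factors and DESeq2 called 0.

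Among the class I genes, 7 of 22 had a region called in both tazemetostat libraries and no control within 10 kb, and 0 had the reverse. Over all coding genes 32.5% of windows held the first kind and 1.35% the reverse. ERAP2, an aminopeptidase that trims peptides in the endoplasmic reticulum, was the only one with such a region at its promoter, at 20.7 and 13.2 under tazemetostat. IRF1, an interferon-induced transcription factor, had 3 such regions in its window but no peak at its start. The calreticulin gene CALR, a chaperone of class I assembly, had promoter values of 19.8 and 29.4 in the controls and 36.8 and 36.1 under tazemetostat, and differed by 0.57 (SE 0.304; limma, adjusted p = 0.111). RFX5, part of the complex that binds the X box, differed by 0.47 (SE 0.294; limma, adjusted p = 0.163). Among the class II genes only CD74, the invariant chain, had a promoter peak. It held 29.1 and 34.0 in the controls and 64.5 and 57.2 under tazemetostat and was higher by 0.93 in log2 (SE 0.296; limma, adjusted p = 0.0231), as 42.7% of all regions were called higher. With the library sizes of the file headers, edgeR called CD74 as well, at 0.94 (edgeR, adjusted p = 0.00646). With median-centred libraries the CD74 difference was 0.17 and was not called (limma, adjusted p = 0.826). Neither edgeR with TMM factors nor DESeq2 called it (0.23 in both). Leaving out 1 library, which leaves a group of 1, gave CD74 differences of 0.82 to 1.04 in limma. No call was read from those fits. CIITA, the class II counterpart of NLRC5, had no peak at its gene start and 1 region called in both tazemetostat libraries and no control in its window.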

How the data were processed

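The data were 4 ATAC-seq peak lists, 1 per library. Per the labels and the submitters' processing notes, reads were trimmed with Trim Galore 0.6.6, aligned with Bowtie2 2.3.5.1 to hg38 and turned into peaks with HOMER 4.11.1, library by library. Normalised tag counts were deposited as a signal per 10000000 mapped tags. The deposited findPeaks score is a count of tags, and the fold over local background is a ratio. The authors also deposited a p-value against local background, which was not used. Per the file headers, peaks were stitched from 300-bp windows at an FDR of 0.001 (the study's methods state 0.05), with fragment lengths of 200 bp in the controls and 144 bp under tazemetostat.

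Peaks were joined where they overlapped by at least 1 bp. Windows were GENCODE 44 gene bodies with 10 kb either side. Promoters reached from 1 kb before to 100 bp after the start, which was the RefSeq start where the promoter table held one and the GENCODE gene start otherwise. Levels were tested with limma 3.58.1 in R 4.3.3 on log2(normalised tag count + 1) over all regions with exactly 1 peak in every library. The p-values were adjusted by Benjamini-Hochberg and called under 0.05. As alternatives, whole tags were recovered from the normalised counts (within 0.133 of a whole number in every peak, with sums equal to the file headers) and tested with edgeR 4.0.16 and DESeq2 1.42.0. On simulated data, limma recovered 99.5% of 200 regions changed 3-fold among 15383, with 3 false calls. The simulation used a small fixed spread and no general shift, whereas the median of the real regions was 0.70. It does not show how well a difference as small as that of B2M (0.48) would be found. Promoter copies on alternate contigs were found with blastn 2.17.0 (at least 90% identity over at least 800 bases) and windows with minimap2 2.31. The members and lists were chosen with earlier results of these data known. All 9 members are named with their promoter values. Of other regions, those called in both libraries of 1 group and none of the other and the highest of each gene are named, and of the other genes of the pathway at most 8. Libraries with the same replicate number showed no shared deviation from their group means (correlation -0.002), and the main fit used no pairing. One marker gene is not reported here.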

Additional observations from a re-analysis of the deposited data

Results flagged for a closer look

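These values lie outside the primary chromosomes on which the members were defined, and stood above the control libraries. Of the 38 copies of the chromosome 6 promoters on alternate contigs, 17 and 10 had a peak in tazemetostat replicates 1 and 2. In control replicates 1 and 2 the numbers were 2 and 6. All peaks on the alternate MHC contigs also rose, from 66 and 134 in the controls to 340 and 315 under tazemetostat. Whether the copies differed from this general rise was not tested. At the copy of the B2M promoter on the alternate contig of chromosome 15, the normalised tag count was 18.6 and 23.0 under tazemetostat and 8.73 and 9.24 in the controls.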

How the results depend on the processing

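The count of 1 member region called in both tazemetostat libraries and no control, the NLRC5 promoter, stayed at 1 with a 50% overlap rule and with a 2 kb flank. It fell to 0 with a fold over local background of at least 8, where the 2 NLRC5 peaks have folds of 4.67 and 4.39. Only 4 member regions were left there, and the share over all primary regions was 13.3%. It was also 0, of 6 member regions left, when each library was trimmed to as many peaks as the smallest. The share over all primary regions was then 6.05%. It was 9 of 35 regions with the matched contig windows, added after seeing the data, beside 13.7% of all regions, contigs included. Leaving out 1 library gave 1 to 5, namely 1 without control replicate 1, 3 without control replicate 2, 4 without tazemetostat replicate 1 and 5 without tazemetostat replicate 2, where fewer libraries had to hold a peak. The share over all primary regions rose as well, to 17.3%, 26.0%, 36.2% and 37.1% in that order. The reverse count was 0 under every alternative, beside shares of 0.378% to 7.55% over all regions. Among the alternatives chosen at the outset, the fit with median-centred libraries called 0 regions higher and 0 lower genome-wide. It therefore could not single out B2M. Under no such alternative that kept 2 libraries per group and could test it was the B2M promoter called. The lowest adjusted p was 0.146, in limma with a fold over local background of at least 8. No call was read from fits without 1 library, which leave a group of 1, for the B2M promoter. Its difference of 0.48 turned to -0.28 with median-centred libraries, -0.20 in edgeR with TMM factors and -0.21 in DESeq2, each of which removes the general shift, and ranged from 0.23 to 0.73 without 1 library (0.61 beside a median of 0.55 over all regions without control replicate 1). With its contig copy added it was 0.83 and was called. The count of member regions called higher by limma was 1 in that fit. Without control replicate 1, the TRIM69 promoter region in the B2M window differed by 1.37 in limma, with no call read. It could be tested only because the control without a peak there was left out, and the lone control is assumed to vary like the tazemetostat libraries. With the replicate block, B2M differed by 0.48 (limma, adjusted p = 0.234) and was again not called. Over all regions the block gave 5046 called higher and 27 lower, against 6569 and 38 without it. Whether libraries with the same number shared a culture is not stated. With a mean normalised tag count of at least 20, no member region was left to test. The count of members with window sums above both controls was 2, and 0 with a fold of at least 8, where the B2M difference moved from 34.7 to -1.15 and that of NLRC5 from 57.4 to 0. With a 2 kb flank the B2M difference was 5.35. The promoter peaks of the chromosome 6 members rest on 12 to 48 tags each.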
